A study of Homo sapiens with 8 samples.

Results

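The 10 genes described here belong to the BCL2 family of apoptosis regulators. They were listed by symbol and role, with no threshold on their values but with earlier results of these data known: BCL2, BCL2L1, MCL1 and BCL2A1, which block apoptosis, the effectors BAX and BAK1, and BCL2L11, BBC3, PMAIP1 and BID, the BH3-only proteins, which share with the rest of the family mainly the BH3 domain. All 10 were listed once in each deposited table, out of 58302 genes. Libraries came from MOLM-13, a cell line of acute myeloid leukaemia known for its MLL-AF9 fusion and duplicated stretch of FLT3, and hold either RNA under ribosomes (footprints) or the input RNA of the same kind of cells. There were 4 groups with 2 libraries each: footprints with a hairpin against the circular RNA circMYBL2 (sh-circMYBL2), footprints with a control hairpin (sh-NC), input RNA with sh-circMYBL2 and input RNA with sh-NC. Every group shares the parental line, and the labels name no other treatment. They do not say how the hairpins were delivered, whether cells were cloned, or whether the libraries of 1 group were grown apart, so p-values measure only the spread between these libraries, which may be technical. The targeted circle was not matched to any row, so its loss could not be checked.

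Apoptosis through mitochondria is set by binding among these proteins. BCL2, BCL-XL (from BCL2L1), MCL1 and BFL-1 (from BCL2A1) hold BAX, BAK and the BH3-only proteins in check. When BIM (BCL2L11), PUMA (BBC3), NOXA (PMAIP1) or cleaved BID outweigh them, BAX and BAK open the outer mitochondrial membrane and cytochrome c leaves. Acute myeloid leukaemia cells often depend on BCL2 and MCL1, and the drug venetoclax binds BCL2.

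The 3 promoters below are those of BBC3, the only member whose RNA passed the test, and of BCL2L11 and BAX, whose libraries were separated by hairpin in the same direction in RNA and in footprints. They were chosen after these values were seen. Each runs from 250 bases before to 50 bases after a start site, 5′ to 3′ on the strand of the gene, from RefSeq in GRCh38.p14: chr19:47232618-47232917 (minus strand) for BBC3, chr2:111120664-111120963 (plus strand) for BCL2L11 and chr19:48954625-48954924 (plus strand) for BAX. Capitals mark matches on either strand to any of the 7 motifs that were searched, none of which overlapped another in these windows.
BBC3: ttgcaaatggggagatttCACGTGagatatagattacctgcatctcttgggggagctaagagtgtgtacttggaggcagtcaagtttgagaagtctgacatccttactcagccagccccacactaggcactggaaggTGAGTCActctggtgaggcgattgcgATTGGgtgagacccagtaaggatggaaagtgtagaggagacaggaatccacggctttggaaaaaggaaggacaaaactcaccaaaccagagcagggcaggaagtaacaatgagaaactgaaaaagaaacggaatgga
BCL2L11: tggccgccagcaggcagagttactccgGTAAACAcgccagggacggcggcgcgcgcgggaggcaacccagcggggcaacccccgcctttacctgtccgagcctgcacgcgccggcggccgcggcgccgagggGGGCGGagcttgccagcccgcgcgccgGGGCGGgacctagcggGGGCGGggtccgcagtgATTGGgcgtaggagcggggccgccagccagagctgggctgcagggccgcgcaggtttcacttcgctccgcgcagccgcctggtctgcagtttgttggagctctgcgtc
BAX: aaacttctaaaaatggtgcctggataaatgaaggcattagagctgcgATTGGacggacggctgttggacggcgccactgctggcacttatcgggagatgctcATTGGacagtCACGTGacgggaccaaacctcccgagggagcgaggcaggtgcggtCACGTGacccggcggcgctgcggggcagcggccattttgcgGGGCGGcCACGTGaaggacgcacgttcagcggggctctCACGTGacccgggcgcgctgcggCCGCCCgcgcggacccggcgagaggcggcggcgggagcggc
GC made up 48% of the BBC3 window, 74.7% of that of BCL2L11 and 67.3% of that of BAX. The GC box of SP1 (GGGCGG) matched 3 times for BCL2L11, 2 times for BAX and not at all in the BBC3 window, and 45.0% of 35116 RefSeq promoter windows held it. An E-box (CACGTG) matched 4 times for BAX and 1 time for BBC3, against 7.26% of all windows with a match. Only the BBC3 window of the 9 members in the table held an AP-1 motif (TGANTCA, 7.71% of all windows), and only that of BCL2L11 a forkhead motif (TGTTTAC, 3.42%). The CCAAT box (CCAAT) was found in the windows of all 3 genes and in 34.6% of all windows. The TATA box (TATAAA, 11.5%) and the C/EBP-ATF motif (TGATGNAA, 3.62%) had no match in the 3 windows. A match describes the letters of a window and is not evidence of a bound site.

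Reads behind each value were recovered from the step that 1 read makes in each library. On genes, 13501743 to 14600090 reads fell in each library of input RNA. Footprint libraries had 222809 and 714949 with sh-circMYBL2 against 80134 and 300336 with sh-NC. The share on microRNA genes was 32.8% and 12.2% with sh-circMYBL2 and 42.7% and 57.2% with sh-NC. Part of the rest fell on genes that are neither microRNA nor protein-coding. Protein-coding genes had 125741 and 584098 reads with sh-circMYBL2, against 33705 and 88682 with sh-NC. This depth gap runs with the hairpin, and its part in the footprint results was not tested. The 10 members together had 160 and 735 footprint reads with sh-circMYBL2 and 54 and 80 with sh-NC, but 9358 to 9932 RNA reads in every library. Of 12 myeloid and MOLM-13 marker genes, 10 were above a mean of 1 FPKM in RNA, with summed levels of 1004 to 1047 FPKM in sh-circMYBL2 cells and 816 to 857 FPKM in sh-NC cells. LYZ (mean 729 FPKM, against 581 FPKM) and FLT3 (139 FPKM, against 105 FPKM) made up most of that gap, and 4 of the 10 markers (CD33, MPO, SPI1 and MEIS1) lay lower with sh-circMYBL2. The part of these shifts in the results was not tested. None of 9 erythroid or 6 megakaryocyte genes reached that level, and 1 of 8 lymphoid and 2 of 7 adherent-cell genes did. The summed lymphoid level was 1.30 to 2.81 FPKM with sh-circMYBL2 and 1.96 to 2.06 FPKM with sh-NC. In these bulk samples, fewer cells of a type and less RNA per cell cannot be told apart.

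In input RNA, 1 of the 10 members, BBC3, was called in the main fit, and it lay lower with sh-circMYBL2. MCL1 and BCL2, the members at high level that block apoptosis, differed by less than 0.06 on the log2 scale. The test was limma on log2(FPKM + 1) over the 12489 genes with a mean of at least 1 FPKM, with Benjamini-Hochberg adjustment and a threshold of 0.05. It called 8.88% of all tested genes, 4.92% higher and 3.96% lower, against 0 members higher and 1 lower. The median log2 change was -0.07 over the 10 members and -0.0037 over all genes. Log2 changes on this scale understate those of low genes.

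MCL1 (ENSG00000143384, chromosome 1, 150574558 to 150579610 in GRCh38), a short-lived protein on which many myeloid cells rely, had 33.6 and 33.04 FPKM with sh-circMYBL2, against 31.7 and 32.5 FPKM with sh-NC. Both sh-circMYBL2 libraries lay above both sh-NC libraries by a small step (log2 change 0.05, SE 0.03, 95% interval -0.04 to 0.15, limma adjusted p = 0.370). BCL2 (ENSG00000171791, chromosome 18, 63123346 to 63320090), the founding member, had 25.1 and 24.9 FPKM, against 26.5 and 25.02 FPKM. These groups overlapped (-0.04, SE 0.04, 95% interval -0.15 to 0.08, limma adjusted p = 0.590). MCL1, BCL2 and BAX were the 3 members at the highest levels per length, above 91.7%, 88.8% and 91.4% of the tested genes.

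The other guardians were low. BCL2L1 (ENSG00000171552, chromosome 20, 31664452 to 31723963), which encodes BCL-XL, had 2.30 and 2.06 FPKM with sh-circMYBL2 and 2.40 and 2.37 FPKM with sh-NC (-0.09, SE 0.09, limma adjusted p = 0.529). Of the tested genes 25.2% had a lower level, the smallest share among the 10 members. BCL2A1 (ENSG00000140379, chromosome 15, 79960892 to 79971196), an NF-kappaB target in many leukocytes, had 3.37 and 2.91 FPKM, against 4.35 and 4.47 FPKM. Its groups did not overlap, and the difference of -0.39 (SE 0.08, 95% interval -0.61 to -0.16) did not pass the test (limma adjusted p = 0.0679).

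BAX (ENSG00000087088, chromosome 19, 48954875 to 48961798), an effector that moves to mitochondria when activated, had 30.4 and 28.4 FPKM with sh-circMYBL2, against 34.1 and 34.4 FPKM with sh-NC. The sh-circMYBL2 libraries were both lower (-0.21, SE 0.05, 95% interval -0.34 to -0.09), and limma gave adjusted p = 0.0680. With the filter raised to a mean of at least 5 FPKM the adjusted p of BAX was 0.0427, and by voom, a test of limma on the recovered reads, it was 0.00329. BAK1 (ENSG00000030110, chromosome 6, 33572552 to 33580276), the effector that resides on mitochondria, had 6.55 and 6.48 FPKM, against 6.83 and 7.41 FPKM (-0.11, SE 0.06, limma adjusted p = 0.294).

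BBC3 (ENSG00000105327, chromosome 19, 47220824 to 47232860) encodes PUMA, a BH3-only protein. It had 6.57 and 7.32 FPKM with sh-circMYBL2 (290 and 338 reads), against 10.05 and 9.53 FPKM with sh-NC (425 and 436 reads). Both sh-circMYBL2 libraries lay well below both sh-NC libraries, and BBC3 fell by 0.44 on the log2 scale (SE 0.07, 95% interval -0.63 to -0.25, limma adjusted p = 0.0402). This call was lost with any 1 of the 4 libraries left out, as was every other call in RNA. The change then ran from -0.51 to -0.37. The call was also lost with no filter on low genes (limma adjusted p = 0.110) and with the replicate number as a block (limma adjusted p = 0.101). With the filter at 5 FPKM the limma adjusted p was 0.0207, and by voom on recovered reads it was 0.000102.

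BCL2L11 (ENSG00000153094, chromosome 2, 111120914 to 111168445) encodes BIM, which binds every anti-apoptotic member. It had 11.9 and 11.1 FPKM with sh-circMYBL2, against 9.67 and 9.64 FPKM with sh-NC. The groups did not overlap and BCL2L11 lay 0.23 higher (SE 0.05, 95% interval 0.09 to 0.37), but limma did not call it (adjusted p = 0.0724). With the filter at 5 FPKM its adjusted p was 0.0448, and by voom on recovered reads it was 0.00180. PMAIP1 (ENSG00000141682, chromosome 18, 59899996 to 59904305) encodes NOXA, which binds MCL1. Its levels of 7.74 and 7.43 FPKM with sh-circMYBL2 and 7.37 and 7.77 FPKM with sh-NC overlapped, and the change was 0.00 (SE 0.05, limma adjusted p = 0.985). BID (ENSG00000015475, chromosome 22, 17734138 to 17774665), which links death receptors to mitochondria once it is cleaved, had 6.46 and 5.81 FPKM, against 5.60 and 5.31 FPKM (0.14, SE 0.07, limma adjusted p = 0.272).

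**Figure D1:**
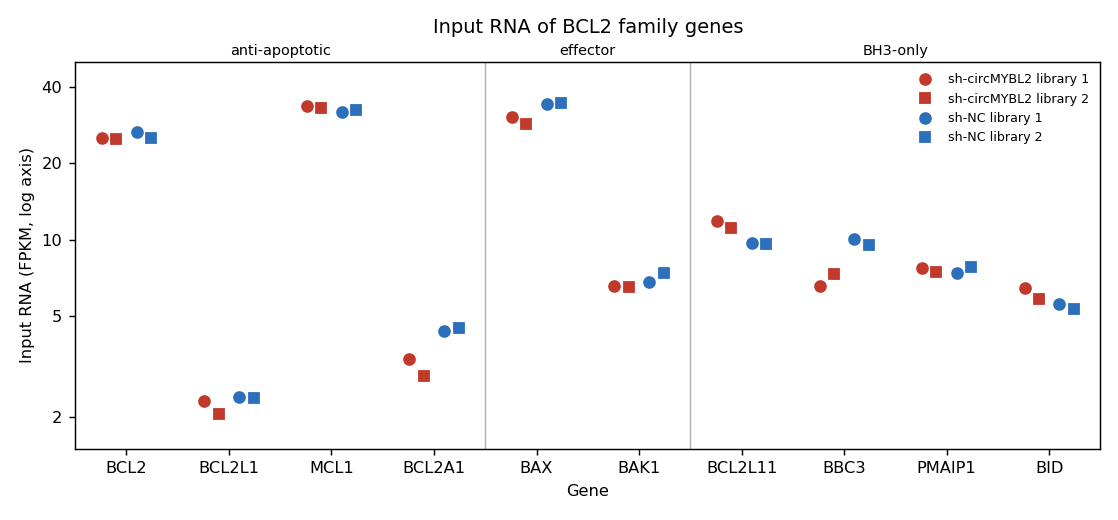
Input RNA of the 10 members in FPKM on a log axis, with 1 point for each library, sh-circMYBL2 in red and sh-NC in blue. BBC3 lies at 6.57 and 7.32 FPKM with sh-circMYBL2, below its 10.05 and 9.53 FPKM with sh-NC, while BCL2, MCL1 and PMAIP1 differ little.

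Groups did not overlap in RNA for 8 of 10 members, with 3 higher (MCL1, BCL2L11 and BID) and 5 lower (BCL2L1, BCL2A1, BAX, BAK1 and BBC3). The same held for 60.7% of all tested genes, 30% higher and 30.7% lower, and the count of members is to be read against that share. Summed over roles, the anti-apoptotic members had 64.4 and 62.9 FPKM with sh-circMYBL2 and 64.9 and 64.4 FPKM with sh-NC. The BH3-only sum was 32.6 and 31.7 FPKM, against 32.7 and 32.3 FPKM, with BBC3 lower and BCL2L11 and BID higher within it. The effector sum was 37.0 and 34.9 FPKM, against 40.9 and 41.8 FPKM. Effectors thus made up 27.6% and 26.9% of the summed level of the family with sh-circMYBL2, against 29.5% and 30.2% with sh-NC. These sums are descriptions and carry no test.

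By level in RNA, sh-circMYBL2 cells ran MCL1, BAX, BCL2, BCL2L11, PMAIP1, BBC3, BAK1, BID, BCL2A1, BCL2L1, and no neighbours in that order overlapped. In sh-NC cells BAX stood first and MCL1 next, then BCL2, BBC3, BCL2L11, PMAIP1, BAK1, BID, BCL2A1 and BCL2L1. There BBC3 overlapped with BCL2L11, and PMAIP1 with BAK1. BBC3 thus had rank 6 with sh-circMYBL2 and rank 4 with sh-NC.

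In footprints, limma on log2(RPKM + 1) called no member higher or lower. Of the 8 members tested, 1 (BAK1) had an unadjusted p under 0.05, and voom on recovered reads called 0. Limma called 0% of the 9431 genes tested, with 1212 at an unadjusted p under 0.05, and voom called 54 of them. The median change over all genes was 0.56, and -0.01 among the 4438 genes with footprints in every library, so member changes are set against both. After quantile normalization the median over all genes was 0.07. BCL2A1 and PMAIP1 had means of 0.206 and 0.834 RPKM and were not tested, and BCL2L1 was the tested member nearest the filter, with a mean of 2.52 RPKM. Values cover whole genes and do not separate coding sequence from other exons.

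MCL1 had the highest mean footprint level of the family with each hairpin, though in sh-NC library 1 BID and in sh-NC library 2 BAX lay above it. It had 46.8 and 56.3 RPKM with sh-circMYBL2 (53 and 274 reads), against 50.1 and 28.3 RPKM with sh-NC (18 and 23 reads). The groups overlapped, since sh-NC library 1 lay between the sh-circMYBL2 libraries (0.44, SE 0.46, 95% interval -0.83 to 1.70, limma adjusted p = 0.719). The change was 0.84 without sh-NC library 1 and 0.04 without sh-NC library 2. BCL2 had 20.02 and 20.5 RPKM (61 and 269 reads), against 8.27 and 11.4 RPKM (8 and 25 reads). Both sh-circMYBL2 libraries were higher, by 0.99 (SE 0.48, 95% interval -0.31 to 2.29, limma adjusted p = 0.529), which lies above both medians. The scaled ratio of its pooled reads was 1.95, with a 95% counting interval of 1.36 to 2.88 that leaves out the spread between libraries. The ratio for MCL1 was 1.56 (1.12 to 2.21). Both ratios and their intervals rest on the authors' scaling totals. Scaled to protein-coding reads, the fitted change was 0.25 for MCL1 and 0.81 for BCL2. After quantile normalization it was 0.67 for MCL1 and 0.90 for BCL2. Pooled sh-circMYBL2 reads come mostly from library b.

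BAX had 13.4 and 11.8 RPKM with sh-circMYBL2 (9 and 34 reads), against 18.8 and 37.5 RPKM with sh-NC (4 and 18 reads). It was the only member lower without overlap in footprints, and the change was -1.02 (SE 0.54, 95% interval -2.50 to 0.46, limma adjusted p = 0.568). It was -1.50 without sh-NC library 1 and -0.54 without sh-NC library 2. Its scaled read ratio was 0.382 (95% counting interval 0.223 to 0.670). The other effector, BAK1, had 14.0 and 2.44 RPKM from 8 and 6 reads, against no read in either sh-NC library. Taking 3 reads as the limit that 0 reads allow, pooled sh-NC libraries could hold up to 5.06 RPKM, above the 4.61 RPKM of the pooled sh-circMYBL2 libraries, so no fold is given for BAK1. Its fitted change (2.84, SE 0.96, limma adjusted p = 0.354) depends on the pseudocount and ran from 1.23 to 5.90 over the alternatives that kept all libraries.

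BCL2L11 had 5.22 and 7.69 RPKM with sh-circMYBL2 (9 and 57 reads), against 3.65 and 1.62 RPKM with sh-NC (2 reads each). Its groups did not overlap (1.08, SE 0.73, 95% interval -0.91 to 3.06, limma adjusted p = 0.627), and its scaled read ratio of 3.22 had a counting interval of 1.20 to 12.2. The change was 1.49 without sh-NC library 1 and 0.66 without sh-NC library 2. BID had 8.69 and 12.3 RPKM (10 and 61 reads), against 60.2 and 8.48 RPKM (22 and 7 reads). A single library, sh-NC 1, carried the high value, and the change of -1.08 (SE 1.04, limma adjusted p = 0.692) was 0.26 without that library and -2.43 without sh-NC library 2. BBC3 had 6.07 and 4.24 RPKM (5 and 15 reads), against 0 and 6.78 RPKM (0 and 4 reads), so the groups overlapped. Its change of 1.13 (SE 1.23, limma adjusted p = 0.724) became -0.35 without sh-NC library 1 and 2.61 without sh-NC library 2. The direction of the 2.61 was set by the filter, since the sh-NC library left had 0 reads.

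BCL2L1 had 4.66 and 3.79 RPKM with sh-circMYBL2 (4 and 14 reads), against 0 and 1.63 RPKM with sh-NC (0 and 1 read). The fitted change of 1.68 (SE 0.81, limma adjusted p = 0.527) was 0.99 without sh-NC library 1 and 2.38 without sh-NC library 2. Its sh-NC mean of 0.813 RPKM was below the filter of 1 RPKM, and library 1 had 0 reads. The direction of the 1.68 and the 2.38 was thus set by the filter. The scaled read ratio of 3.51 had a counting interval of 0.555 to 146. PMAIP1 had 1.73 and 1.61 RPKM from 1 and 4 reads, against no read with sh-NC, where 3 reads over the group would be 5.01 RPKM. BCL2A1 had 1 footprint read in all, in sh-circMYBL2 library b, and the floor for its sh-NC group was 10.3 RPKM. Differences of PMAIP1 and BCL2A1 were not detectable at this depth.

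**Figure D2:**
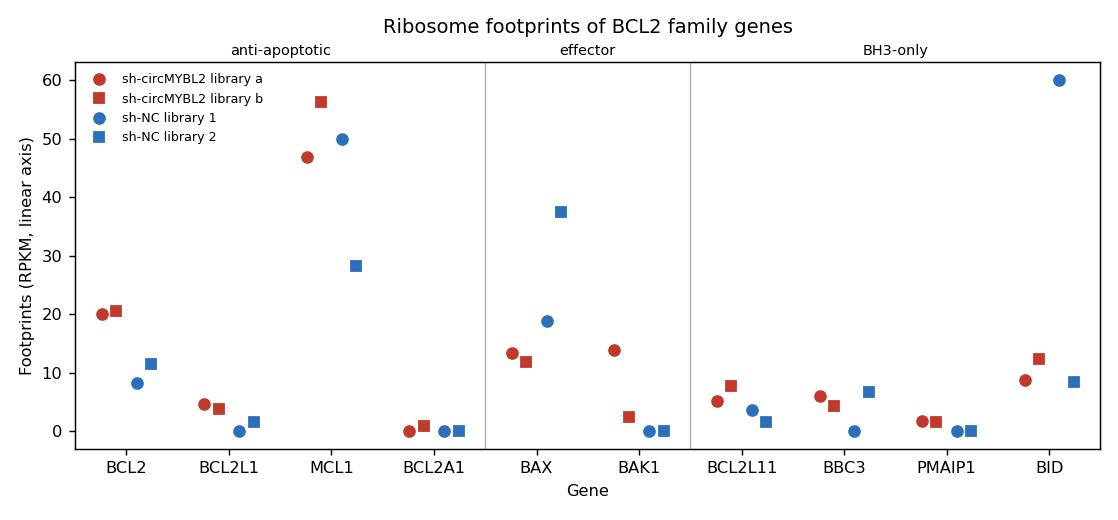
Footprints of the 10 members in RPKM on a linear axis, with 1 point for each library, sh-circMYBL2 in red and sh-NC in blue. BCL2 lies near 20.02 RPKM in both sh-circMYBL2 libraries and at 8.27 and 11.4 RPKM with sh-NC, and BID at 60.2 RPKM in sh-NC library 1 alone.

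Among the 8 tested members, footprint groups did not overlap for 4 that were higher (BCL2, BCL2L1, BAK1 and BCL2L11) and for 1 that was lower (BAX). BAK1, with no sh-NC read, and BCL2L1, with a sh-NC mean of 0.813 RPKM, passed the filter only through the sh-circMYBL2 group. The direction of both was thus set by the filter. Among all tested genes the groups did not overlap for 41.6%, 30.7% higher and 10.9% lower. Only 5 members (MCL1, BCL2, BAX, BCL2L11 and BID) had footprints in every library, and their median change was 0.44, against -0.01 for all 4438 such genes. By level in sh-NC footprints the ranges of MCL1, BID and BAX overlapped, while with sh-circMYBL2 MCL1 and BCL2 stood apart from each other and from the rest.

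Translational efficiency (TE) sets footprints against RNA of the same hairpin, and its change was tested as the interaction of hairpin and assay over all 8 libraries. Limma called no member among 8 tested, and voom on recovered reads called 0. Unadjusted p was under 0.05 for 3 members (BCL2, BCL2L1 and BAK1), and for 1618 of all 8260 genes tested. Of 8260 genes tested limma called 5.31%, with 5.05% higher and 0.266% lower, and the median change was 0.57. The tables were scaled separately, so TE changes are relative to each table's scaling.

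BCL2 had a TE change of 1.03 (SE 0.32, 95% interval 0.23 to 1.82, limma adjusted p = 0.149). That of MCL1 was 0.38 (SE 0.43, 95% interval -0.68 to 1.44, limma adjusted p = 0.694), and that of BAX -0.81 (SE 0.48, 95% interval -2.00 to 0.39, limma adjusted p = 0.454). BCL2L1 (1.78, SE 0.69, limma adjusted p = 0.238) and BAK1 (2.95, SE 0.96, limma adjusted p = 0.160) had 1 and 0 footprint reads with sh-NC. Both passed the footprint filter only through the sh-circMYBL2 group, so their higher footprints and TE are not read as differences. RNA of both was lower in both sh-circMYBL2 libraries. TE changes were 0.85 for BCL2L11, 1.57 for BBC3 and -1.23 for BID, with limma adjusted p of 0.468, 0.599 and 0.649. With 1 library left out in turn, TE changes ran from -1.29 to -0.33 for BAX and 0.81 to 1.24 for BCL2. They ran from 1.08 to 2.47 for BCL2L1, 0.43 to 1.26 for BCL2L11 and -0.017 to 0.78 for MCL1. Those of BBC3 ran from 0.09 to 3.05, and those of BID from -2.57 to 0.12. BBC3 and BCL2L1 had no read in sh-NC footprint library 1, so without library 2 their direction was set by the filter. PMAIP1, with no sh-NC read, entered the fits without sh-NC library 1 or 2 through the sh-circMYBL2 group alone. Its change there is not read as a difference. In fits with a lone sh-NC footprint library, that library is assumed to vary like the other groups, of which 2 are far deeper RNA groups. Their TE calls of members are not given.

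Set as levels, footprints per RNA (mean RPKM over mean FPKM, from tables scaled separately and with no test) were 1.55 for MCL1 with sh-circMYBL2 and 1.22 with sh-NC. The ratio was 0.810 for BCL2 with sh-circMYBL2 and 0.383 with sh-NC. For BAX it was 0.429 with sh-circMYBL2 and 0.822 with sh-NC. With sh-circMYBL2 the ratios of BCL2L1 (1.94) and BID (1.71) lay above that of MCL1. With sh-NC the ratio of BID (6.29) did, carried by its high footprint value in library 1. PMAIP1, with RNA at 7.58 FPKM, had a ratio of 0.220 with sh-circMYBL2 and no footprint read with sh-NC.

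**Figure D3:**
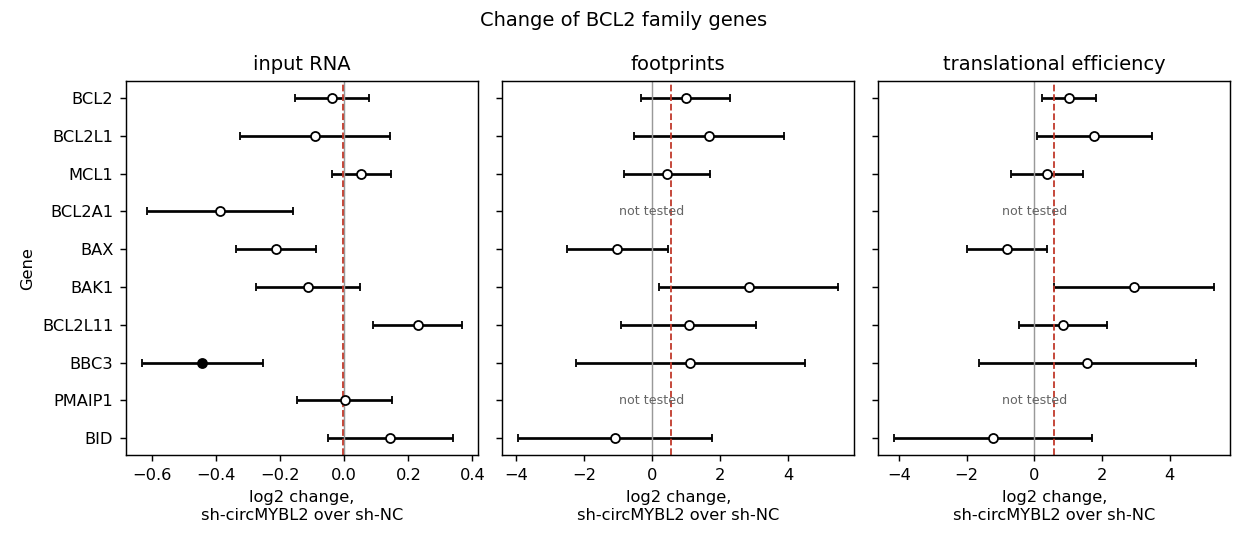
Log2 change with sh-circMYBL2 over sh-NC of each member in input RNA, footprints and TE, with bars for the 95% interval of limma. The dashed red line is the median over all tested genes (-0.0037, 0.56 and 0.57), and the filled point, BBC3 in RNA, is the only one with an adjusted p under 0.05.

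Genes around the family were read from 4 lists chosen with earlier results of these data known. In RNA, limma called 8 of their 47 tested genes, or 17.0%, against 8.88% of all genes tested. Because of how the lists were chosen, that share is not read as a result about them. Of 13 other BCL2 family genes, 7 were tested in RNA and none passed in that fit. They had a median change of 0.19, against -0.0037 over all genes. The gene with the smallest p was BCL2L13, a mitochondrial family member, at 11.3 and 12.1 FPKM with sh-circMYBL2, against 14.2 and 13.8 FPKM with sh-NC (-0.25, SE 0.05, limma adjusted p = 0.0636). With the filter at 5 FPKM its adjusted p was 0.0376, and by voom on recovered reads it was 0.000288.

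Of 14 tested genes of the apoptosome, caspases and inhibitor of apoptosis proteins, 2 rose and none fell in RNA, with a median of 0.06. BIRC5, which encodes survivin and also acts in mitosis, had 2.68 and 3.10 FPKM with sh-circMYBL2, against 0.906 and 1.07 FPKM with sh-NC (0.97, SE 0.11, limma adjusted p = 0.0240). CASP6, an executioner caspase, had 2.26 and 2.45 FPKM, against 1.28 and 1.32 FPKM (0.54, SE 0.09, limma adjusted p = 0.0449). Among 10 tested genes of the death receptor pathway, 1 rose and 1 fell, with a median of 0.00. TNFSF10, the ligand TRAIL, rose to 2.43 and 2.20 FPKM with sh-circMYBL2, against 0.823 and 0.700 FPKM with sh-NC (0.91, SE 0.11, limma adjusted p = 0.0256). Its receptor TNFRSF10B fell to 18.96 and 20.6 FPKM, against 25.2 and 24.9 FPKM (-0.32, SE 0.05, limma adjusted p = 0.0427).

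Of 16 partners and regulators of BCL2 proteins, all tested, 2 rose and 2 fell, with a median of 0.05. The porins of the outer mitochondrial membrane VDAC1 (129.6 and 136 FPKM with sh-circMYBL2, against 99.3 and 107 FPKM with sh-NC) and VDAC3 (75.7 and 77.3 FPKM, against 57.2 and 57.3 FPKM) rose by 0.36 and 0.41 (limma adjusted p = 0.0357 and 0.0117). MDM2, a ubiquitin ligase, fell to 43.2 and 43.6 FPKM, against 55.9 and 51.7 FPKM (-0.30, SE 0.05, limma adjusted p = 0.0410). DDIT3, the stress factor CHOP, fell to 3.64 and 2.83 FPKM, against 10.4 and 10.4 FPKM (-1.43, SE 0.11, limma adjusted p = 0.0121). Leaving out a single RNA library, whichever of the 4 it was, left 0 genes called by limma in RNA (2610 to 2828 at an unadjusted p under 0.05), so each call named for these lists was lost.

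**Figure D4:**
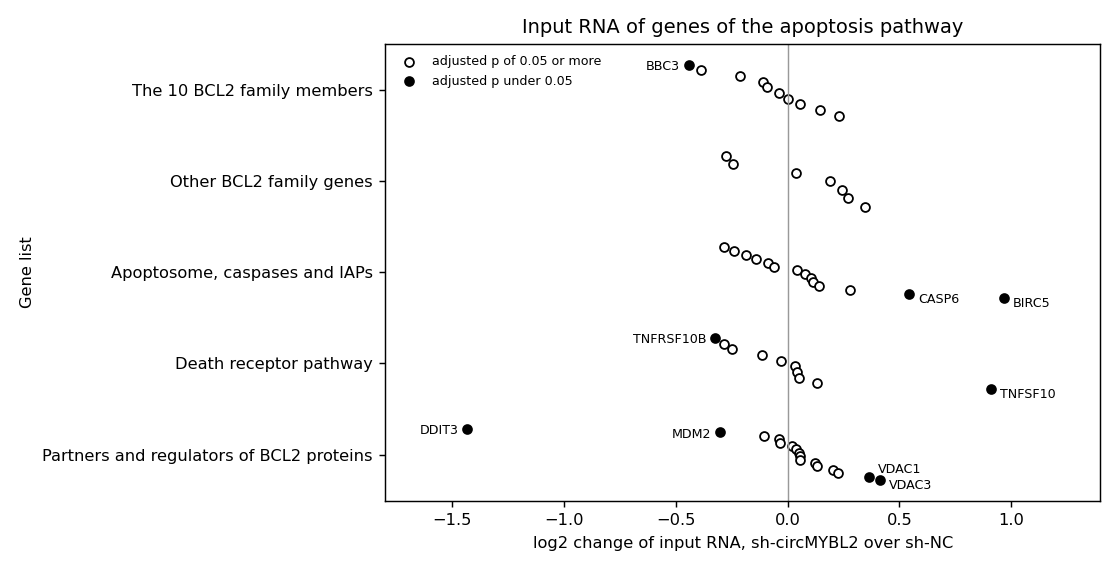
Log2 change of input RNA with sh-circMYBL2 over sh-NC, with 1 point for each tested gene in 5 lists. Filled points with names had an adjusted p under 0.05 by limma, and they run from -1.43 for DDIT3 to 0.97 for BIRC5.

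In footprints no gene of these lists passed by limma. In TE, limma called 3 of 44 tested genes, or 6.82%, against 5.31% of all genes tested: XIAP and BIRC2, which encode inhibitors of apoptosis, and BIK, a BH3-only protein. XIAP had 9 and 56 footprint reads with sh-circMYBL2, against none in either sh-NC library. BIRC2 had 6 and 24 reads, against none, and BIK had 3 and 22 reads, against none. All 3 therefore passed the footprint filter through the sh-circMYBL2 group alone, their fitted changes depend on the pseudocount, and 2 equal zeros understate the spread with sh-NC, so these calls are not read as differences. Set against 3 reads in the pooled sh-NC libraries, the limit for a count of 0, the ratios of scaled reads were 4.23, 1.95 and 1.63. These ratios take the sh-circMYBL2 reads as exact and leave out the spread between libraries. They also belong to genes singled out through their zeros, so they are not read as folds. Leaving out a single RNA library left 0 genes called by limma in TE (948 to 966 at an unadjusted p under 0.05). RNA of XIAP, BIRC2 and BIK differed by -0.09, 0.04 and 0.35, none past the threshold (limma adjusted p = 0.377, 0.671 and 0.125).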

How the data were processed

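Input RNA was deposited as FPKM and footprints as RPKM, both made by the authors from reads on genes, scaled by gene length and a total for each library. The recovered scaling total differed from the reads on genes in every library. It was 1113399 against 714949 reads in sh-circMYBL2 footprint library b, and 185632 against 300336 in sh-NC footprint library 2. Values, read ratios and floors rest on these totals, and the part of this scaling in the results was not tested. The submitters' processing notes name build hg38 and, as tools, HISAT2, Bowtie, cutadapt, DESeq2 and featureCounts. For their versions, roles and strand setting no statement was found (not given in the sources), so reads of overlapping or antisense genes may be shared. Gene positions and promoters came from RefSeq in GRCh38.p14, a release of that build, which matched 10 of 10 members by symbol for positions and 9 for promoters. Where a gene had several promoter windows, the first listed was printed.

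Multiplying values by gene length gave whole multiples of 1 step in each library. The step was read from microRNA genes of known length (98.6% to 99.4% of their values were whole within 0.02 reads). The smallest whole length that made all values of a gene whole gave its reads, for all but 1 of 30194 genes above 0. Where every count of a low gene shares a factor, this understates its reads. Recovery was tested on simulated data.

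Values of each table went separately, as log2(value + 1), into a two-sided test of limma 3.58.1 (R 4.3.3, eBayes with trend). Genes entered with a mean of 1 or more over the 4 libraries of a table. TE was the hairpin by assay interaction over genes that passed in both tables. It gives each gene 1 variance over both assays, although footprints vary more, so its p-values may be too small. The Benjamini-Hochberg adjustment ran over every gene tested (threshold 0.05). An exact permutation of 2 against 2 libraries cannot go below p = 0.333. Footprint columns of sh-circMYBL2 carry the group but no sure replicate and are called a and b. Ratios of pooled reads used the authors' scaling totals with exact binomial 95% intervals. These and the floor of 3 reads cover counting error only.

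The members and the gene lists were chosen with earlier results of these data known. All members are named, with up to 6 genes of each other list by smallest p in RNA among those past the threshold (1 where none passed), and any that passed in footprints or TE. One gene of these lists counts in the totals but is not reported here. A protein motif planned for the members was not analysed here. Alternatives were a pseudocount of 0.1 or 5, no filter or a mean of at least 5, quantile normalization, scaling to protein-coding reads, voom on recovered reads, each library left out and, in RNA, the replicate number as a block.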

Additional observations from a re-analysis of the deposited data

How the results depend on the processing

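The 1 member called in RNA (BBC3) became 3 with a mean of at least 5 or by voom (BBC3, BAX and BCL2L11), and 0 with no filter, with any 1 library left out (range 0 to 0) or with the replicate block. Over all genes the RNA calls were 1109, against 97 with no filter, 3250 by voom, 0 to 0 with a library left out and 0 with the replicate block (3373 at an unadjusted p under 0.05, against 3653 without it). The deviations of same-numbered RNA libraries from their group means had a correlation of 0.03 across 12489 genes. With a single difference for each hairpin, this cannot show whether same-numbered libraries were grown or prepared together. BBC3 had adjusted p = 0.101 with the block. No paired analysis was possible for footprints and TE because the numbers on the sh-circMYBL2 footprint columns are not surely replicate numbers. In footprints, 0 members were called under every setting run, and the 0 genes called became 54 by voom and 0 to 746 with a library left out. In TE, the 0 members called became 1 (BAK1) with a pseudocount of 0.1 and 0 to 6 with a library left out, counts that include BAK1 or PMAIP1, which have no sh-NC footprint read. The 439 genes called in TE became 853 and 2 with pseudocounts of 0.1 and 5, 42 with a mean of at least 5, 0 after quantile normalization, 175 by voom and 0 to 4953 with a library left out. The causes of these moves were not tested.

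The direction of a member's change was kept under every scaling, filter, pseudocount and voom, and turned in 7 cases, all with a library left out. Over those fits footprint changes ran from -0.35 to 2.61 for BBC3 and from -2.43 to 0.26 for BID. The 2.61 of BBC3 came without sh-NC library 2, where its direction was set by the filter. RNA changes ran from -0.078 to 0.00037 for BCL2 and from -0.032 to 0.036 for PMAIP1. TE changes ran from -2.57 to 0.12 for BID and from -0.017 to 0.78 for MCL1. Of 93 refitted RNA changes of the 8 list genes called, 50 lost their call and none turned, and BCL2L13, not called, passed in 2 of 12 refits. In footprints, 1 read was worth 0.205 RPKM of MCL1 in sh-circMYBL2 library b and 2.78 RPKM in sh-NC library 1.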

Other observations

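For MCL1 and BCL2, protein-coding genes with a mean of at least 5 in both tables were ranked by how closely their values followed the member over the 8 libraries. The measure was the root mean square difference of log2(value + 1), with each table centred on the gene's own mean. Among 3578 genes, those nearest to MCL1 were SSFA2 (0.0430), HSPA4 (0.0620) and POGK (0.0687), against a median difference of 0.528 over all genes. Those nearest to BCL2 were DACH1 (0.0511), PTPRA (0.0524) and LIN7C (0.0546), against a median of 0.557. The measure rests on 8 libraries in 4 groups and is a description with no test.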
